A study of Mus musculus with 4 samples.

Results

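The genes of the proteasome were compared between lenses of mice without Tdrd7, which encodes a Tudor-domain protein found in RNA granules, and lenses of control mice. They were chosen by name alone: every gene of the deposited table whose symbol begins with Psma, Psmb, Psmc, Psmd, Psme, Psmf or Psmg, without pseudogenes. This took 45 of the 10790 genes in the table. One of them, Psmc3ip, has the prefix but encodes a meiotic recombination factor, and counts over 44 genes leave it out. The 44 comprise 7 alpha and 7 beta subunits of the 20S core, 1 immunoproteasome beta subunit, 6 ATPases and 11 other subunits of the 19S regulatory particle, 4 activators, 1 inhibitor and 7 assembly chaperones. Psma8, Psmb8, Psmb9, Psmb11 and Psme2b carry the same prefixes and were not analysed here.

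Whole lenses were taken on postnatal day 4, and each library came from 15 pooled lenses. There were 2 libraries from Tdrd7 -/- mice, called Tdrd7 null here, and 2 from wild type control mice. The sources used here give neither the strain and sex nor the change made in Tdrd7, and they do not say which litters the pools came from, so p-values measure the spread between these 4 pools. Values are scaled reads, meaning read counts over a library factor set by the authors, and long genes collect more of them unless a value is given per kb of transcript. The genes in the table held 33920522 to 42767535 reads per library. Tdrd7 itself had 165.1 and 96.6 scaled reads in Tdrd7 null lenses, against 1187.7 and 972.5 in control lenses (log2 fold change -3.08, limma adjusted p = 1.17e-06).

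The labelled tissue matched its markers. All 10 fiber and all 5 epithelial markers were listed. None of the 8 macrophage and leukocyte, 5 red cell or 5 retina markers was listed, and 5 of 6 endothelial markers lay between 0.497 and 7.26 scaled reads, 4 of them lowest in control replicate 2. Of the 10 fiber markers 1 fell, and of the 5 epithelial markers 2 fell and 1 rose. The part of these shifts in the results below was not tested.

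The proteasome is the protease that degrades proteins tagged with ubiquitin. Its 20S core is a barrel of outer alpha rings, which gate the entrance, and inner beta rings, which hold the cutting sites. The 19S regulatory particle binds ubiquitin chains, removes them and unfolds the substrate with a ring of ATPases. In the lens the pathway is known for the turnover of cell cycle regulators and of damaged proteins.

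Of the 44 proteasome genes, 13 rose in Tdrd7 null lenses and 0 fell at an adjusted p under 0.05 (limma), where 10.1% of the 10696 tested genes were called higher and 7.88% lower (18% together). All members passed the filter on low values. The rises were small, between 1.13-fold and 1.26-fold. The alpha ring of the core held 6 of the 13, the 19S particle 5, the beta ring 1 and the activators 1. At an unadjusted p under 0.05 there were 20 of the 44, against 33.1% of all tested genes. In 26 of the 44 both Tdrd7 null pools lay above both control pools, where this held for 30.2% of all tested genes, and in 2 both lay below, where it held for 31.3% (61.5% in either direction). The median log2 fold change of the 44 genes was 0.11, and 33 of them (75%) lay above 0, as did 48.9% of all tested genes. In whole lenses, more RNA per cell and more cells of a type rich in that RNA cannot be told apart.

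The number of calls changed under several alternatives. Fold changes in these libraries ran with GC content. After the trends on GC content and on transcript length were taken out of each library together, called here both trends removed, 0 of the 44 genes were called in either direction (limma), where 2.06% of all tested genes were called higher and 1.24% lower (3.29% together). At an unadjusted p under 0.05 there were then 7 of the 44, against 18.9% of all tested genes. The median of the 44 was 0.06 and 31 lay above 0. Over all tested genes the median was then 0.0035, and 5454 of 10656 lay above 0. Removal of either trend alone was not run. With totals that leave out crystallin genes, 8 were called higher and 0 lower, against 7.16% and 11.8% of all tested genes (19% together). The count of 13 became 2 without control replicate 1, 5 without control replicate 2 and 3 without Tdrd7 null replicate 2, where the 1077 genes called higher over the whole table became 279, 340 and 513. Of the 13, 1 gene, Psmc6, was called whichever library was left out. The count became 0 with a prior that ignores intensity and 2 with equal library totals. Over the whole table, the 1077 genes called higher became 9 and 559 in these fits. The log2 fold changes of the 13 genes, 0.18 to 0.33 as reported, were then 0.18 to 0.33 and 0.18 to 0.34.

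**Figure D1:**
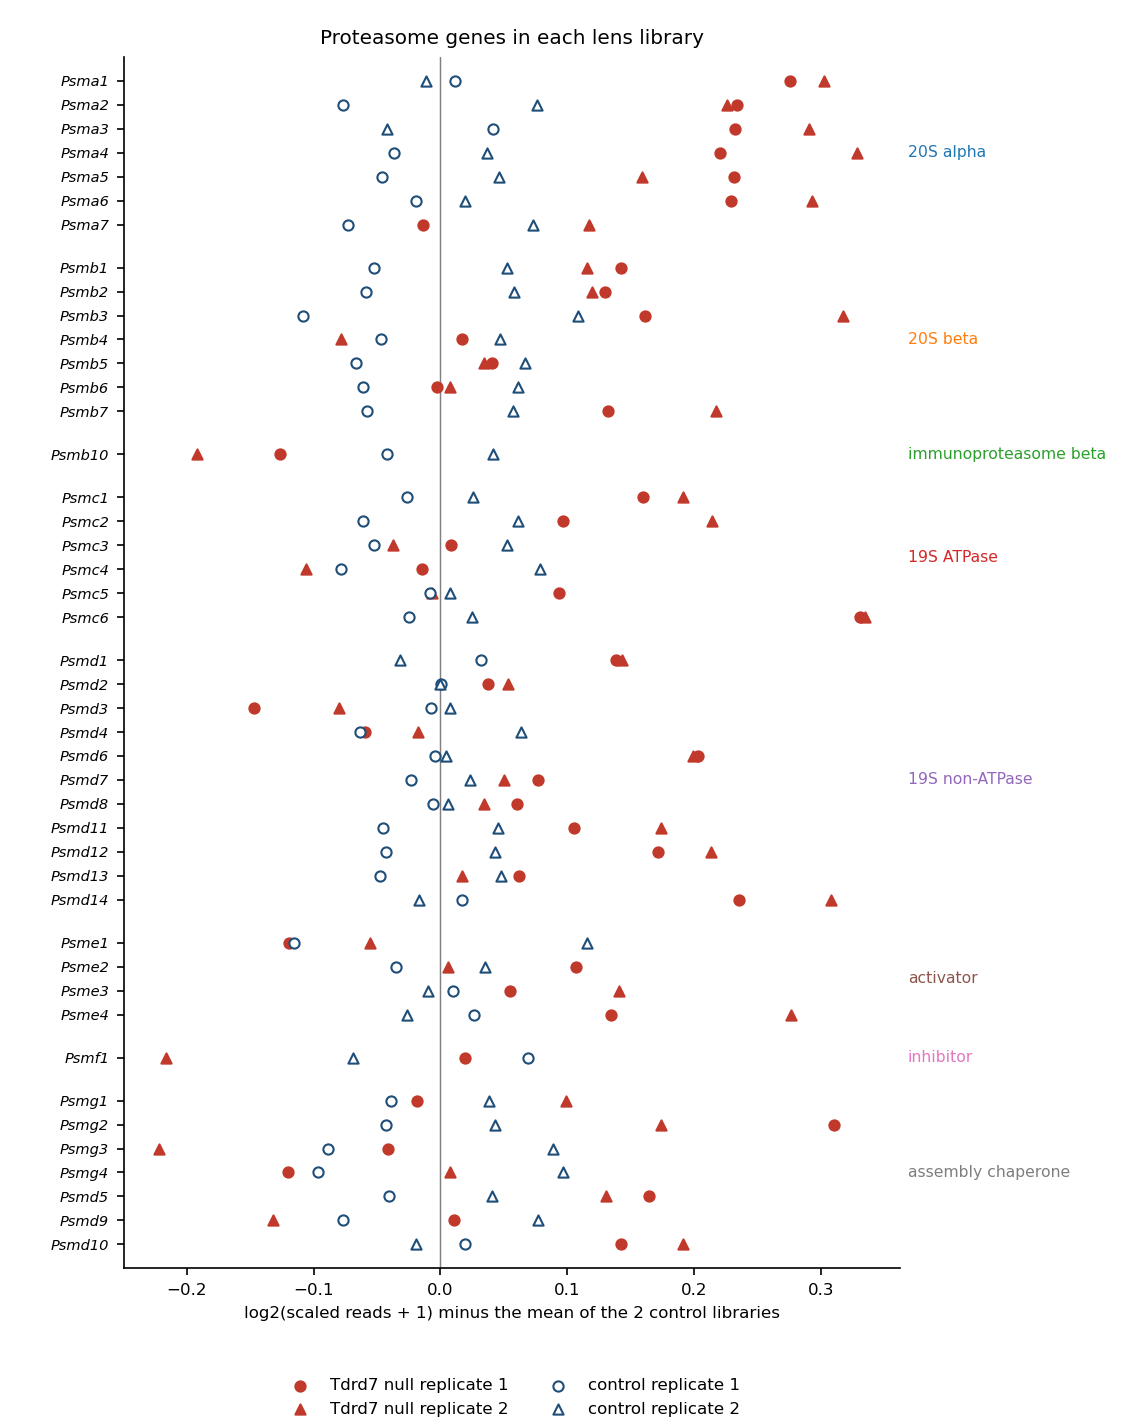
Each of the 44 proteasome genes in each library, as log2(scaled reads + 1) minus the mean of the 2 control libraries. Filled red points are Tdrd7 null pools, open blue points control pools, circles replicate 1 and triangles replicate 2. For 6 of the 7 alpha subunits both Tdrd7 null pools lie right of both control pools, while Psmb4, Psmb5 and Psmb6 overlap.

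The alpha subunits of the core were called most often. Of the 7, 6 rose and the other, Psma7, did not pass. Their median log2 fold change was 0.26. It was 0.11 with both trends removed, when all 7 lay above 0 and none was called by limma. In that fit 3 of the 7 had an unadjusted p under 0.05, against 18.9% of all tested genes. Psma1 (ENSMUSG00000030751, chr7:114264606-114276118 on GRCm38) had 48.1 and 49.1 scaled reads in Tdrd7 null lenses, against 39.9 and 39.3 in control lenses (log2 fold change 0.29, SE 0.0565, limma adjusted p = 0.00564). Psma6 had 77.04 and 80.6 scaled reads in Tdrd7 null lenses, against 64.7 and 66.5 in control lenses (log2 fold change 0.26, SE 0.0546, limma adjusted p = 0.00768). Psma4, the counterpart of the yeast subunit whose tail closes the gate, had 52.7 and 56.9 scaled reads in Tdrd7 null lenses, against 43.9 and 46.3 in control lenses (log2 fold change 0.27, SE 0.0607, limma adjusted p = 0.00991). Psma1 lost its call without control replicate 2 (log2 fold change 0.28, limma adjusted p = 0.0514) and Psma6 without control replicate 1 (0.24, limma adjusted p = 0.0741). Psma4 lost it without Tdrd7 null replicate 2 (0.22, limma adjusted p = 0.0679) and without control replicate 1 (0.24, limma adjusted p = 0.0965). In these 3 genes the gap between genotypes was wider than the gap between the pools of either genotype.

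Psma3 had 29.8 and 31.1 scaled reads in Tdrd7 null lenses, against 26.003 and 24.5 in control lenses (log2 fold change 0.26, limma adjusted p = 0.0158). Psma2 had 51.7 and 51.4 scaled reads in Tdrd7 null lenses, against 41.5 and 46.3 in control lenses (log2 fold change 0.23, limma adjusted p = 0.0252). Without control replicate 1 Psma2 stood at 0.15 (limma adjusted p = 0.215). Psma5 had 51.4 and 48.9 scaled reads in Tdrd7 null lenses, against 42.3 and 45.1 in control lenses (log2 fold change 0.20, limma adjusted p = 0.0402). All 3 encode ring subunits without a cutting site and kept apart by genotype, but in each of them the control pools differed by more than the Tdrd7 null pools did. Psma7, the alpha subunit with the highest GC content at 57.4%, had 43.7 and 47.98 scaled reads in Tdrd7 null lenses, against 41.9 and 46.5 in control lenses, and these overlapped (log2 fold change 0.05, 95% interval -0.09 to 0.20). With both trends removed Psma7 had the largest log2 fold change of the 7, 0.16, and Psma2 the smallest, 0.01.

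None of the 3 constitutive cutting subunits was called. Psmb5, which carries the chymotrypsin-like site, had 134.4 and 133.9 scaled reads in Tdrd7 null lenses, against 124.7 and 136.9 in control lenses (log2 fold change 0.04, 95% interval -0.09 to 0.16). Psmb6, with the caspase-like site, had 116.4 and 117.2 scaled reads in Tdrd7 null lenses, against 111.7 and 121.7 in control lenses (log2 fold change 0.00, 95% interval -0.12 to 0.12). For both, the Tdrd7 null pools lay between the control pools. Psmb7, with the trypsin-like site, had 125.7 and 133.4 scaled reads in Tdrd7 null lenses, against 110.1 and 119.3 in control lenses, which did not overlap (log2 fold change 0.17, 95% interval 0.05 to 0.30, limma adjusted p = 0.0526). Psmb7 has the lowest GC content of the beta subunits, 40.8%, and stood at -0.02 with both trends removed.

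Among the structural beta subunits Psmb3 rose. It had 54.9 and 61.3 scaled reads in Tdrd7 null lenses, against 45.4 and 52.9 in control lenses (log2 fold change 0.24, SE 0.0756, limma adjusted p = 0.0444). The lower Tdrd7 null pool was only slightly above the higher control pool. With both trends removed Psmb3 stood at 0.20 (adjusted p = 0.135), which was then the largest value of the 44 genes. Psmb3 stood at 0.13 without control replicate 1 (limma adjusted p = 0.352) and at 0.16 without Tdrd7 null replicate 2 (limma adjusted p = 0.237). Psmb1 and Psmb2 stood at 0.13 and 0.12 with groups that did not overlap, and neither passed (limma adjusted p = 0.124 and 0.169). Psmb4 had 215.5 and 201.6 scaled reads in Tdrd7 null lenses, against 206.1 and 219.97 in control lenses, and was the lowest of the 7 at -0.03 (95% interval -0.15 to 0.09). A difference between the alpha and the beta ring was not tested.

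Psmb10, the one immunoproteasome subunit in the table, takes the place of Psmb7 in cells exposed to interferon. It was scarce, with 1.49 and 1.38 scaled reads in Tdrd7 null lenses, against 1.64 and 1.798 in control lenses, and Tdrd7 null replicate 2 held 49 reads of it. Both Tdrd7 null pools lay below both control pools, and its log2 fold change was -0.16 (95% interval -0.44 to 0.12). Per kb of transcript Psmb10 had 1.09 in Tdrd7 null lenses and 1.31 in control lenses, and Psmb7 had 111.7 in Tdrd7 null lenses and 98.9 in control lenses, all in scaled reads.

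**Figure D2:**
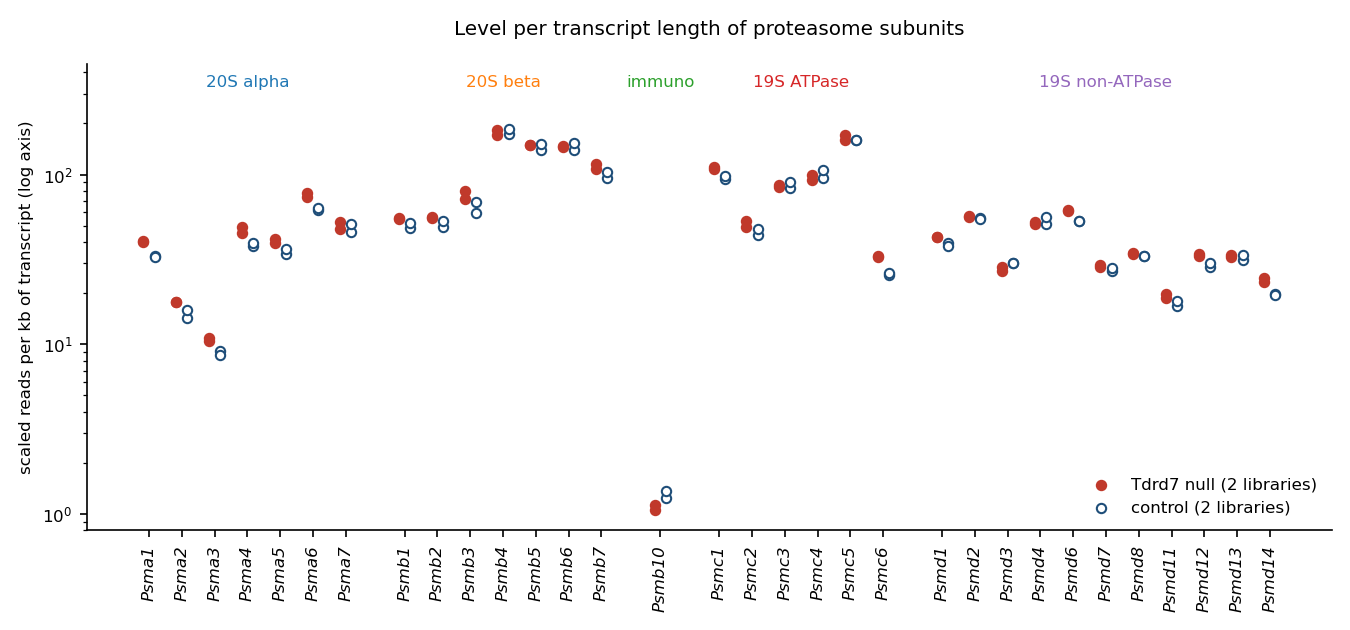
Scaled reads per kb of the principal transcript (log axis) of the 20S and 19S subunits in each library, with the Tdrd7 null pools (red) left of the control pools (open blue). Psmb4, Psmb5, Psmb6 and Psmc5 stand highest and Psmb10 lowest.

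Levels per kb differed widely among genes whose proteins enter the core in equal number. In scaled reads per kb, Psmb4 had 176.3 in Tdrd7 null lenses and 180.1 in control lenses. Psmb5 had 149.2 in Tdrd7 null lenses and 145.5 in control lenses, and Psmb6 had 146.4 in Tdrd7 null lenses and 146.3 in control lenses. These were the 3 highest core genes in each genotype, and the pools of Psmb5 and Psmb6 overlapped in control lenses. The highest alpha subunit per kb, Psma6, had 75.6 in Tdrd7 null lenses and 62.9 in control lenses. Psma3 was the lowest, with 10.7 in Tdrd7 null lenses and 8.87 in control lenses, and Psma2 the next, with 17.7 in Tdrd7 null lenses and 15.1 in control lenses. The annotated transcripts of Psma3 and Psma2 are 2846 and 2911 nt long, while those of the other alpha subunits span 914 to 1239 nt, so these low values rest on the annotated length. In the 19S particle Psmc5 led, with 164.9 in Tdrd7 null lenses and 159.9 in control lenses. This rank also rests on the annotated length. Over the median length of a gene's coding transcripts Psmd2 stood above it, with 255.5 in Tdrd7 null lenses and 247.5 in control lenses.

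In the ATPase ring of the 19S particle, 2 of 6 genes rose. Psmc6 (ENSMUSG00000021832, chr14:45329824-45349071) had 73.4 and 73.5 scaled reads in Tdrd7 null lenses, against 57.1 and 59.1 in control lenses, the largest change of the 44 genes (log2 fold change 0.33, SE 0.054, limma adjusted p = 0.00253). The pools of each genotype lay close together and far from those of the other. Psmc6 also has the lowest GC content of the 44, 36.97%, and stood at 0.06 with both trends removed (adjusted p = 0.548), while it was called when any one library was left out (0.00362 to 0.0417). Psmc1, whose protein helps to open the gate of the core, had 171.7 and 175.5 scaled reads in Tdrd7 null lenses, against 150.8 and 156.4 in control lenses (log2 fold change 0.18, limma adjusted p = 0.0335), and stood at 0.13 with both trends removed. Psmc2 stood at 0.16 with groups that did not overlap and did not pass (limma adjusted p = 0.0965). The other 3 ATPase genes overlapped between genotypes, with Psmc3 at -0.01, Psmc5 at 0.04 and Psmc4 at -0.06, the lowest of the ring (95% interval -0.19 to 0.07).

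Of the 11 other 19S subunits, 3 rose and 0 fell. Psmd14 (ENSMUSG00000026914, chr2:61711694-61800376), the enzyme that removes ubiquitin chains from bound substrates, had 35.9 and 37.8 scaled reads in Tdrd7 null lenses, against 30.7 and 29.9 in control lenses (log2 fold change 0.27, SE 0.0608, limma adjusted p = 0.0105). Psmd6 had 85.4 and 85.1 scaled reads in Tdrd7 null lenses, against 73.8 and 74.3 in control lenses (log2 fold change 0.20, limma adjusted p = 0.02). Psmd12 had 63.02 and 64.9 scaled reads in Tdrd7 null lenses, against 54.2 and 57.6 in control lenses (log2 fold change 0.19, limma adjusted p = 0.0344). All 3 belong to the lid, the part of the particle that holds the deubiquitinase, and in all 3 the genotypes were apart. With both trends removed Psmd14, Psmd6 and Psmd12 stood at 0.09, 0.10 and 0.13. Psmd7, the inactive partner of Psmd14, stood at 0.06 and did not pass (limma adjusted p = 0.465).

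The lid subunit Psmd11 stood at 0.14 (limma adjusted p = 0.118). The scaffold genes Psmd1 and Psmd2 stood at 0.14 and 0.05, the ubiquitin receptor Psmd4 at -0.04, and Psmd8 and Psmd13 at 0.05 and 0.04. None of these 6 passed. Psmd3, another lid subunit, had the lowest log2 fold change of the 11, -0.11 (95% interval -0.23 to 0.01), with 58.4 and 61.2 scaled reads in Tdrd7 null lenses, against 64.5 and 65.1 in control lenses. Its Tdrd7 null pools lay below the control pools, and with both trends removed it stood at -0.00116.

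One of 4 activators rose. Psme4, which encodes a large nuclear cap of the core, had 179.9 and 198.5 scaled reads in Tdrd7 null lenses, against 166.8 and 160.8 in control lenses (log2 fold change 0.21, limma adjusted p = 0.0288), and stood at 0.13 with both trends removed. Psme4 lost its call in each fit that left out Tdrd7 null replicate 2 or a control pool, and stood at 0.13 without Tdrd7 null replicate 2 (limma adjusted p = 0.206). Psme3, the nuclear ring activator, stood at 0.10 and did not pass (limma adjusted p = 0.275). Psme1 and Psme2 form the ring activator induced by interferon. Psme1 had 16.1 and 16.9 scaled reads in Tdrd7 null lenses, against 16.1 and 19.1 in control lenses, with overlap (log2 fold change -0.09). Psme2 had 7.95 and 7.35 scaled reads in Tdrd7 null lenses, against 7.12 and 7.52 in control lenses, also with overlap (0.06). Psmf1, an inhibitor of the core in vitro, had 16.8 and 14.1 scaled reads in Tdrd7 null lenses, against 17.4 and 15.7 in control lenses, and these overlapped too (-0.10, 95% interval -0.29 to 0.09).

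None of the 7 assembly chaperones passed limma. At an unadjusted p under 0.05 there were 2 of the 7, against 33.1% of all tested genes. With both trends removed there were 0, against 18.9%. Psmg1 and Psmg2 form the pair that starts the alpha ring. Psmg2 was the highest of the group, with 12.1 and 10.9 scaled reads in Tdrd7 null lenses, against 9.21 and 9.84 in control lenses (log2 fold change 0.24, limma adjusted p = 0.0628), and its groups did not overlap. Psmg1 had overlapping groups and stood at 0.04. Psmg3 and Psmg4, the other pair of alpha ring chaperones, stood at -0.13, the lowest of the group, and -0.06. Psmd5, Psmd9 and Psmd10, which assemble the ATPase ring, stood at 0.15, -0.06 and 0.17. Psmg3 had 1.73 and 1.41 scaled reads in Tdrd7 null lenses, against 1.64 and 1.99 in control lenses, so its 95% interval was wide, -0.42 to 0.16.

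Added up by class, each sum was higher in both Tdrd7 null pools than in either control pool. The 14 core genes summed to 1147 and 1157 scaled reads in Tdrd7 null lenses and to 1025 and 1103 in control lenses, a difference of 8.27%. The 17 genes of the 19S particle summed to 1712 and 1704 scaled reads in Tdrd7 null lenses and to 1588 and 1647 in control lenses, a difference of 5.62%. The 7 chaperones summed to 84.9 and 83.7 scaled reads in Tdrd7 null lenses and to 76.9 and 82.1 in control lenses, a difference of 6.09%. The control pools stood further apart than the Tdrd7 null pools in all 3 sums, with control replicate 1 the lower. Without that pool the differences were 4.48%, 3.71% and 2.79%, and without control replicate 2 they were 12.3%, 7.59% and 9.61%. With totals that leave out crystallins they were 5.28%, 2.70% and 3.16%. Sums with both trends removed were not run. In the fit with both trends removed, the median log2 fold change was 0.09 for the core, 0.07 for the 19S particle and -0.04 for the chaperones. Above 0 lay 11 of the 14 core genes, 13 of the 17 genes of the 19S particle and 3 of the 7 chaperones. Over single genes, 35 of the 44 were lower in control replicate 1 than in control replicate 2, as were 50% of all genes compared, and the median log2 gap over the 44 was 0.08. For the core the gap between the control pools was 0.11 on the log2 scale, where the median difference between genotypes was 0.19. What set control replicate 1 apart in these genes was not tested.

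**Figure D3:**
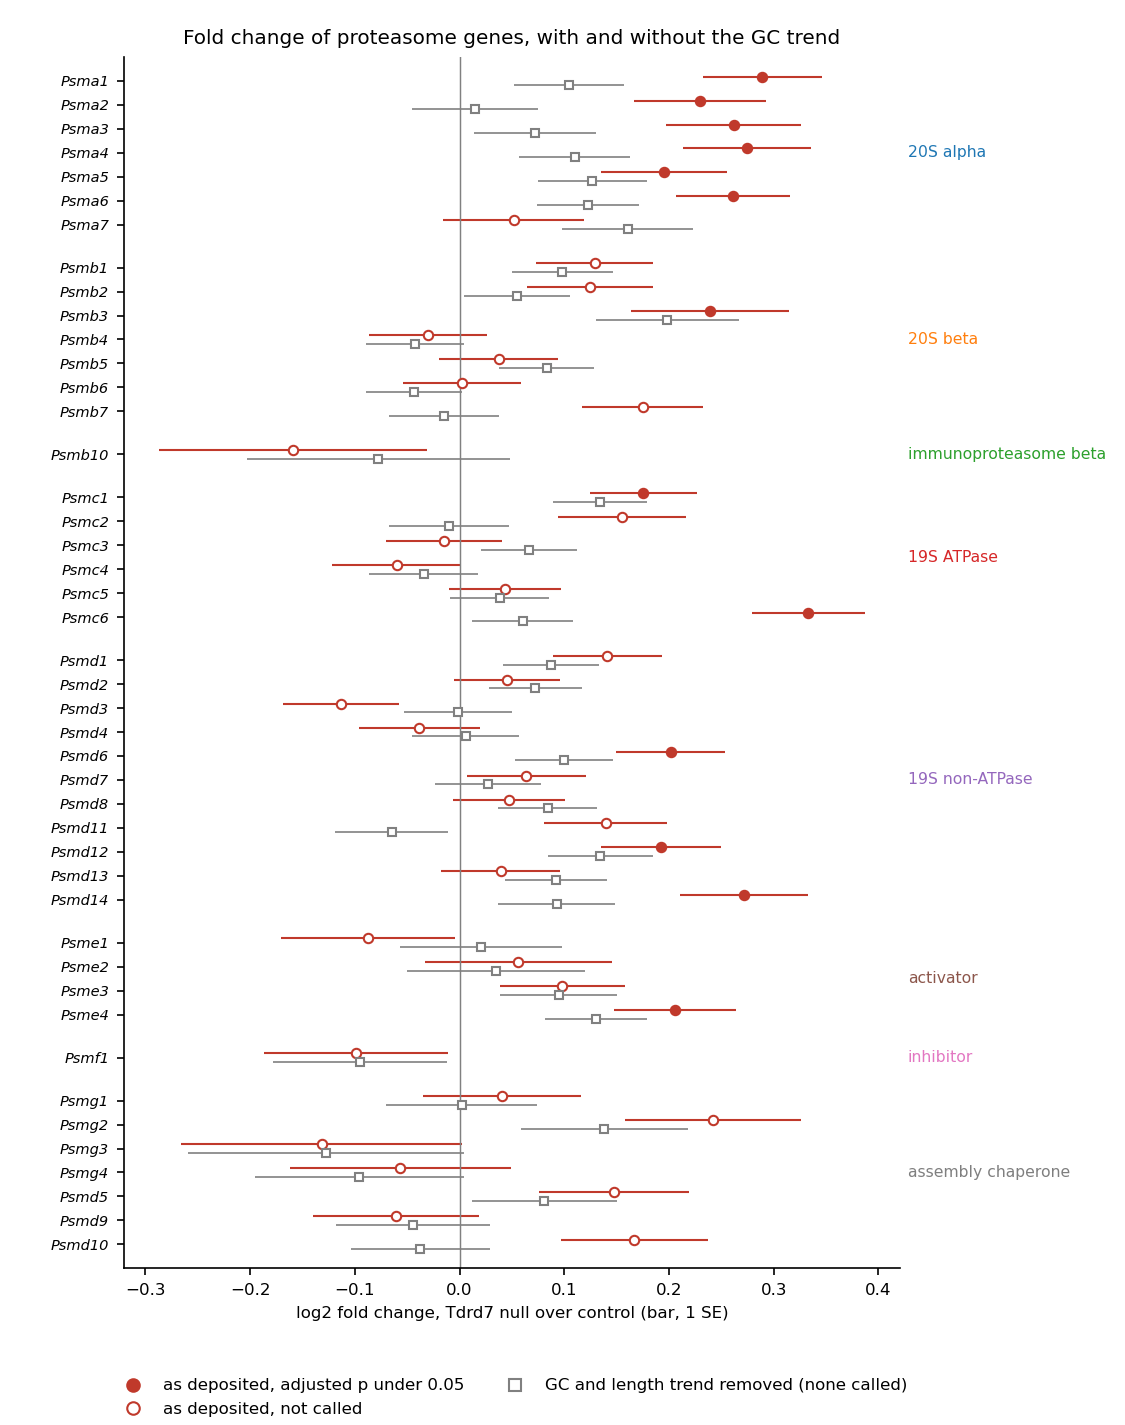
Log2 fold change of each proteasome gene, Tdrd7 null over control, with 1 SE, as deposited (circles, filled at an adjusted p under 0.05) and with the trends on GC content and length removed (grey squares). The 13 filled genes lie between 0.18 and 0.33, and between 0.01 and 0.20 once both trends are removed.

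Which proteasome genes rose ran with GC content. The 13 called genes had a median GC content of 44.98% and the 32 others, Psmc3ip among them, one of 51.3%, with 49.6% over all genes of the table. Across the 44 genes, which share libraries and are not replicates, log2 fold change and GC content had a Pearson's r of -0.758 and a Spearman's rho of -0.782. With both trends removed, Pearson's r was -0.081, a value that the removal of a GC trend itself brings towards 0. Counted over all 45 members, 2 of 3 with a GC content under 40% rose where 43.4% of all genes did, and 5 of 8 from 40 to 45% where 22.6% did. From 45 to 50% it was 6 of 14 members against 8.5% of all genes, from 50 to 55% 0 of 13 against 2.54%, and from 55% up 0 of 7 against 0.681%. The median log2 fold change was 0.23 for members and 0.22 for all genes under 40%, 0.23 and 0.14 from 40 to 45%, and 0.16 and 0.03 from 45 to 50%. It was 0.04 for members and -0.06 for all genes from 50 to 55%, and -0.06 and -0.16 above. The members' median was the higher in each of these 5 classes. The classes were not matched for transcript length, whose median was 1819 nt for the 45 members and 3569.5 nt for all genes of the table.

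**Figure D4:**
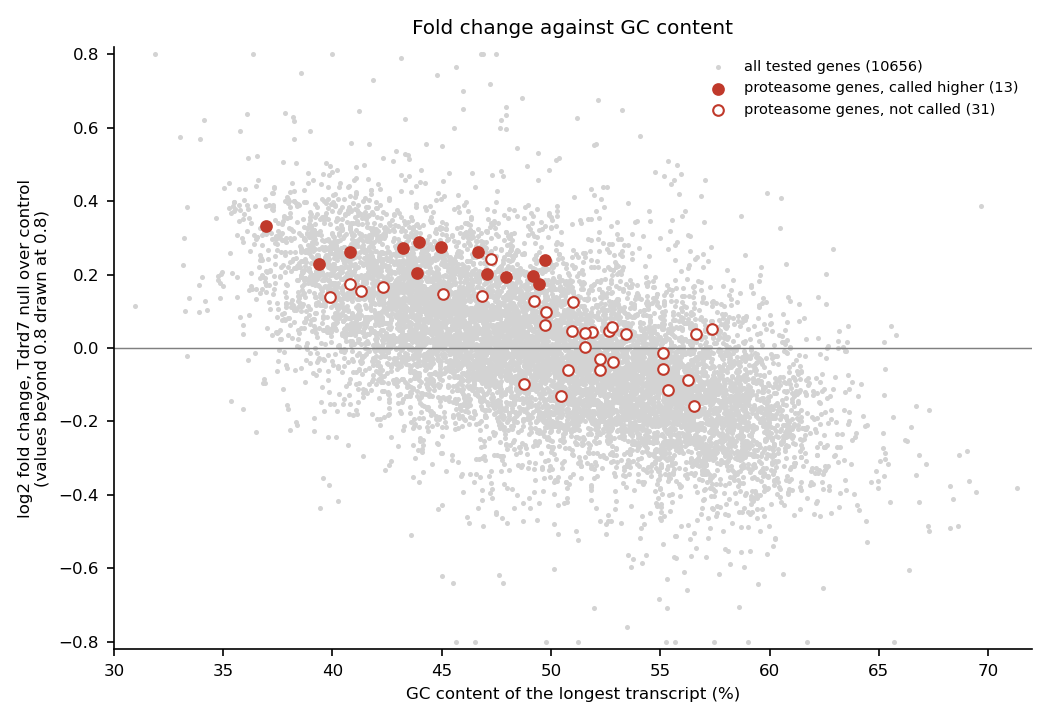
Log2 fold change, Tdrd7 null over control, against GC content of the longest transcript, for all tested genes (grey), proteasome genes called higher (filled red) and those not called (open red). The filled points lie under 50% GC, and values beyond 0.8 are drawn at 0.8.

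The start regions of these genes were searched for the core of the antioxidant response element, the site of NFE2L1, a transcription factor that raises proteasome genes when the protease is inhibited, and for the core of the ETS motif. RefSeq windows on GRCm38.p6, from 250 bases before a gene's start to 50 after it, were at hand for 38 of the 45 members, and both strands were read. The antioxidant element core TGACNNNGC was present in 6 of the 38 (15.8%), against 17.3% of tested genes with a window and 12.4% of all 32851 windows. The ETS core CCGGAAG was present in 15 of the 38 (39.5%), against 21.5% of tested genes and 8.86% of all windows. The box CCAAT, bound by NF-Y, was present in 13 of the 38 (34.2%), against 43.6% of tested genes and 37.4% of all windows. Among the 13 called genes, 3 held the antioxidant core, 6 the ETS core and 7 the CCAAT box. Windows are shown for the gene with the largest change, for an alpha subunit that rose and for 2 cutting subunits that were not called, with the antioxidant and ETS cores of either strand in capitals. The window of Psmc6 is chr14:45329574-45329873 on the plus strand, that of Psma6 chr12:55398575-55398874 on the plus strand, that of Psmb5 chr14:54617946-54618245 on the minus strand and that of Psmb6 chr11:70525107-70525406 on the plus strand.
Psmc6: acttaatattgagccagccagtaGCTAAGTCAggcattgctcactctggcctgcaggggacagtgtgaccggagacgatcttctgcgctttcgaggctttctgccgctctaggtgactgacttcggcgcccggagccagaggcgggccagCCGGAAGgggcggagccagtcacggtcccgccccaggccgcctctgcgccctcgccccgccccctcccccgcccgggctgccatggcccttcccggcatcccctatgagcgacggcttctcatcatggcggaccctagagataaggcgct
Psma6: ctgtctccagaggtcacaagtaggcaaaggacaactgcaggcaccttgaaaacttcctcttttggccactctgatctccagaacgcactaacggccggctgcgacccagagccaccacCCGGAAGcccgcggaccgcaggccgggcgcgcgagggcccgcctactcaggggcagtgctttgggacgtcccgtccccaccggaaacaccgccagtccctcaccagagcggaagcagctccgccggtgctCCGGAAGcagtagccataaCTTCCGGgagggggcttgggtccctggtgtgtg
Psmb5: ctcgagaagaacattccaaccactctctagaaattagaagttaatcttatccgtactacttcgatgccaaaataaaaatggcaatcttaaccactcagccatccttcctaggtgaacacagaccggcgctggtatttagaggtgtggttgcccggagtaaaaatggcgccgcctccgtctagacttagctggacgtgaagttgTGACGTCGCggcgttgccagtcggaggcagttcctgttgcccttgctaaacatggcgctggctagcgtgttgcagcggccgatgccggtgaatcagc
Psmb6: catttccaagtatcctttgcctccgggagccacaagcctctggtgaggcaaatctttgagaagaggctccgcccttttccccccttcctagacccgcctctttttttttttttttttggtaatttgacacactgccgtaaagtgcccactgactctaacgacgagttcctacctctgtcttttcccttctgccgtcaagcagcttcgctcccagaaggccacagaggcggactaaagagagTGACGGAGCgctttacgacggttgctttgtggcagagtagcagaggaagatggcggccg
Psmc6 has an antioxidant core 227 bases before its start, read on the opposite strand, and an ETS core 100 bases before it. Psma6 has no antioxidant core and 3 ETS cores. Its window lies inside the gene as listed in the deposited table, chr12:55384222-55418454, and not at the first base of that span. Psmb5 and Psmb6 each have 1 antioxidant core, 47 and 9 bases before the start, and no ETS core. A match of letters is a description, not a site of binding.

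Of 43 other listed genes of the pathway, 5 rose and 4 fell, shares near the 10.1% and 7.88% of all tested genes, and the median log2 fold change was -0.02. Among 11 genes of assembly and of proteins bound to the 19S particle, 4 rose and 1 fell. Shfm1, a small subunit of the 19S lid without the Psm prefix, had 50.3 and 52.1 scaled reads in Tdrd7 null lenses, against 33.6 and 38.01 in control lenses (log2 fold change 0.51, limma adjusted p = 0.00096). Its log2 fold change was larger than that of any of the 44 genes, and it was still called with both trends removed (0.35, limma adjusted p = 0.0104) and when any one library was left out (0.000371 to 0.0232). Uchl5, a deubiquitinase of the 19S particle, rose by 0.31 on the log2 scale (limma adjusted p = 0.0205). Txnl1, a thioredoxin-like protein bound to that particle, rose by 0.24 (limma adjusted p = 0.022). With both trends removed they stood at 0.07 and 0.05. When a library was left out, Uchl5 ranged from 0.23 to 0.39 and Txnl1 from 0.18 to 0.30. Adrm1, the ubiquitin receptor that holds Uchl5, had 21.9 and 19.1 scaled reads in Tdrd7 null lenses, against 24.97 and 23.8 in control lenses (log2 fold change -0.24, limma adjusted p = 0.0423), and stood at -0.10 with both trends removed. Adrm1 stood at -0.15 without Tdrd7 null replicate 2 (limma adjusted p = 0.29) and was not called without either control pool. Pomp, a chaperone of core assembly, was named after its values were seen. It had 132.4 and 130.5 scaled reads in Tdrd7 null lenses, against 112.99 and 120.5 in control lenses (log2 fold change 0.17, limma adjusted p = 0.0448). Pomp stood at 0.18 with both trends removed (limma adjusted p = 0.0624). With totals that leave out crystallins it stood at 0.13 and was not called (limma adjusted p = 0.107). Its log2 fold change was 0.12 without control replicate 1 and 0.22 without control replicate 2.

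Among 11 genes of shuttles and unfolding factors, which bring substrates to the proteasome, 2 fell and 0 rose. Over all tested genes 7.88% were called lower and 10.1% higher. Both directions together made 18.2% of the 11 genes and 18% of all tested genes. Vcp, the ATPase that pulls ubiquitinated proteins out of complexes, had 107.6 and 96.1 scaled reads in Tdrd7 null lenses, against 123.7 and 121.7 in control lenses (log2 fold change -0.27, limma adjusted p = 0.0105). It lost its call without Tdrd7 null replicate 2, control replicate 1 or control replicate 2 (limma adjusted p = 0.0812, 0.0881 and 0.0638), and was still called with both trends removed (-0.25, limma adjusted p = 0.0233). Ubqln2, a shuttle that carries tagged proteins, had 13.7 and 13.5 scaled reads in Tdrd7 null lenses, against 16.2 and 16.9 in control lenses (log2 fold change -0.27, limma adjusted p = 0.0235), and was not called with both trends removed (-0.24, limma adjusted p = 0.0694). Uba6, an enzyme that activates ubiquitin, rose by 0.30 on the log2 scale (limma adjusted p = 0.0392) and stood at 0.10 with both trends removed. When a library was left out, Ubqln2 ranged from -0.29 to -0.24 and Uba6 from 0.21 to 0.39.

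**Figure D5:**
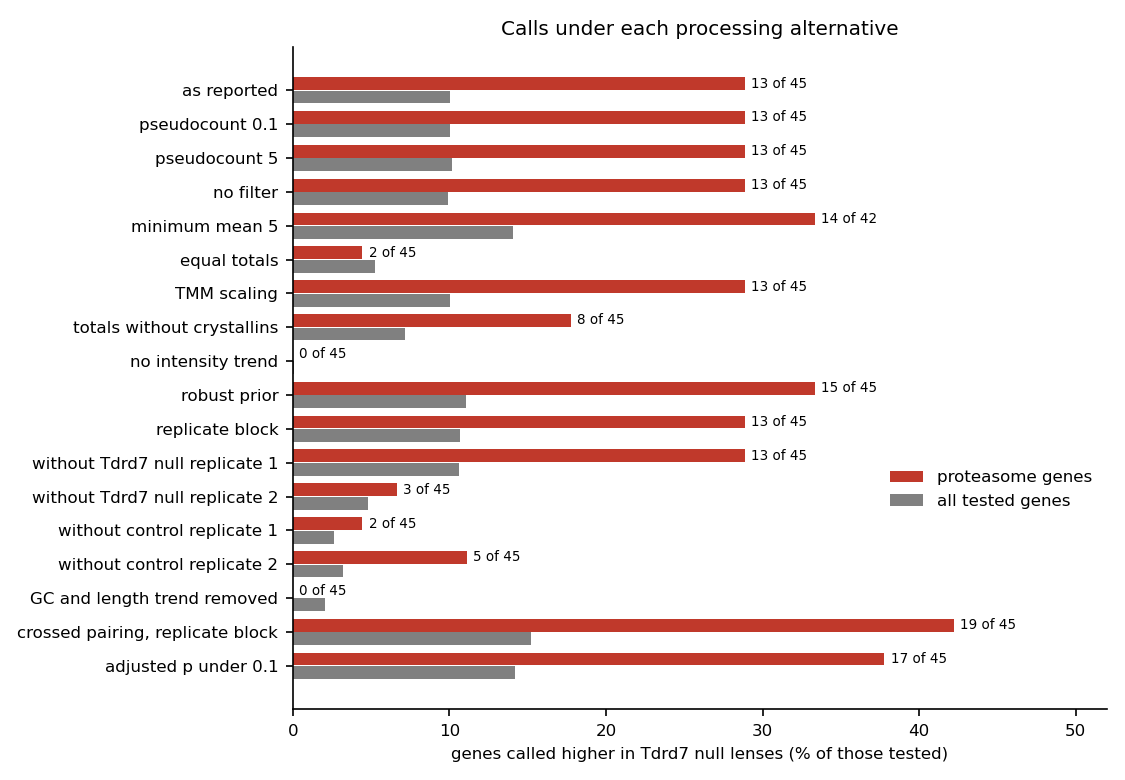
Percent of proteasome genes (red, with counts) and of all tested genes (grey) called higher in Tdrd7 null lenses under each processing alternative. The red bars range from 0 to 19 genes.

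Some of these genes share exonic sequence with a neighbour, and the sources used here do not say whether counting used strand, so reads there cannot be told apart. Psmd13, Psmb7, Psmc3 and Psmc3ip share 342, 405, 215 and 385 nt with Sirt3, Nek6, Slc39a13 and Mlx on the opposite strand. Psmd9 shares 1849 nt with Gm26745, Psmd1 252 nt with Htr2b and Psma4 114 nt with AY074887, also on the opposite strand. Psmg3 shares 280 nt with Gm26938, Psmd1 301 nt with Gm21972 and Psmb5 109 nt with Mir686 on its own strand. Txnl1 shares 117 nt with Wdr7 and Vcp 352 nt with 1700022I11Rik on the opposite strand. Psmb5, Psmb6 and Psmb7 have named processed pseudogenes in the annotation, 4 in all, so their counts are uncertain where reads fit both. Pseudogenes that are not named after a member were not searched for, so other members may share this limit.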

How the data were processed

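The deposited table holds a signal value for each of 10790 genes in each of 4 libraries. Per the submitters' processing notes, the authors' tools were TopHat2 2.0.9, Trimmomatic, Cuffnorm and Cufflinks, and the build was mm10 (GRCm38). The sources used here name no counter or scaling step. In each library all values were whole multiples of a single step (tolerance 0.1 of a step), so the values were treated as scaled reads. Every listed gene reached at least 1.02 scaled reads in some library, so genes of low signal are missing from the table. No count model was run.

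Values were analysed as log2(scaled reads + 1), which understates changes of low genes, where the mean over libraries was 1 or more (10696 genes). limma 3.58.1 (R 4.3.3) compared the genotypes with an intensity-dependent prior, two-sided, with Benjamini-Hochberg adjustment over all tested genes and a threshold of 0.05. Intervals are limma's 95% intervals. With 2 libraries a group, the smallest p of an exact permutation is 0.333. The fit was also run on simulated counts whose spread was set in advance, which cannot show how well it judges the spread of these pools.

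The longest GENCODE M21 transcript gave GC content and length (10750 genes), and the APPRIS principal transcript, or the longest coding one where none is marked, gave levels per kb. As an alternative, natural splines on GC content and log2 length (df 5 each) were subtracted from each library. Others were pseudocounts, filters, scalings, priors, a replicate block, left-out libraries and an adjusted p under 0.1.

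Members, gene lists and alternatives were chosen with earlier results of these data known. Named genes were Tdrd7, all called members, the cutting subunits and Psmb10, the highest and lowest member of each role, and the 8 called pathway genes with the smallest p, of which 1 is not reported here. Other members are given where their role is described.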

Additional observations from a re-analysis of the deposited data

How the results depend on the processing

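The count of 13 proteasome genes called higher was unchanged with pseudocounts of 0.1 and 5, no filter and the replicate number as a block. TMM scaling also gave 13, but it left the values nearly as deposited, so it was no separate check. The core sum differed by 8.27% between genotypes in both. The count was 14 with a minimum mean of 5, 15 with a robust prior and 17 at an adjusted p under 0.1. It moved to 2 with equal totals, 8 with totals that leave out crystallins, 0 without the intensity trend of the prior and 0 with the trends on GC content and length both removed. In no alternative run was a proteasome gene called lower. Leaving out a library gave 2 to 13 proteasome genes called higher, 279 to 1137 genes called higher and 125 to 999 lower over all genes, and 1 to 4 pathway genes higher and 0 to 4 lower. Psmc6 was called in 15 of 17 alternatives (limma adjusted p 3.7e-08 to 0.548) and Psma1 in 14 (1.15e-05 to 0.308). The 17 include the crossed pairing described below, which was added after seeing the data and gave the lowest value of Psmc6. They also include the fit as reported, read at an adjusted p under 0.1. Over all genes, 1077 higher and 843 lower became 559 and 429 with equal totals, 9 and 7 without the intensity trend, 219 and 132 with both trends removed, 766 and 1262 with totals that leave out crystallins, and 1517 and 1327 at an adjusted p under 0.1. Pathway genes, 5 higher and 4 lower, became 2 and 1 with equal totals, 3 and 6 without crystallins, 0 and 0 without the intensity trend, 2 and 1 with both trends removed, and 9 and 7 at an adjusted p under 0.1.

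The labels do not say that replicate numbers pair libraries, and same-numbered deviations correlated at -0.151 over genes. The replicate block gave 13 proteasome genes higher, 1144 genes higher and 973 lower over all genes, and 4 pathway genes higher and 4 lower. In that fit the prior had infinite weight. The spread of each gene thus came from the intensity trend and not from its own libraries. A crossed pairing, added after seeing the data, gave 19 proteasome genes, 1628 and 1408 over all genes, and 10 and 6 pathway genes. Summed levels differed by 4.48% to 12.3% for the core, 3.71% to 7.59% for the 19S particle and 2.79% to 9.61% for the chaperones when a library was left out, and by 5.28%, 2.70% and 3.16% with totals that leave out crystallins.

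Directions that turned belonged to genes not called. With both trends removed these were Psmc3 (0.0661), Psmd4 (0.00576), Psmd11 (-0.0646), Psmb6 (-0.0434), Psmc3ip (-0.00326), Psme1 (0.0205), Psmb7 (-0.0151), Psmc2 (-0.0103), Psmd10 (-0.0373) and Nfe2l1 (0.012). With totals that leave out crystallins, which moved the median of all genes to -0.04, they were Psmb6 (-0.0375), Psmb5 (-0.00282) and Psmd13 (-0.000613). When a library was left out, log2 fold changes ranged for Psma7 from -0.0212 to 0.12, Psmb4 from -0.0781 to 0.0174, Psmb5 from -0.0294 to 0.10, Psmb6 from -0.0588 to 0.064, Psmc3 from -0.0673 to 0.0379, Psmc3ip from -0.0615 to 0.16, Psmc4 from -0.14 to 0.0185, Psmc5 from -0.00686 to 0.0936, Psmd13 from -0.00854 to 0.087, Psmd4 from -0.10 to 0.0251, Psmd9 from -0.14 to 0.0163, Psme1 from -0.20 to 0.0282, Psmf1 from -0.22 to 0.0191, Psmg1 from -0.0186 to 0.0993 and Psmg4 from -0.15 to 0.0403. With 1 pool left in a genotype, it was assumed to vary like the other genotype. The planned count model on whole reads was not run. Causes of these shifts were not tested, and depth limits mainly Psmb10, Psmg3 and Psmc3ip, with 49 or 50 reads in Tdrd7 null replicate 2.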

Other observations

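The 9 measured regulators of proteasome gene transcription held 0 called genes in limma, with 3 at an unadjusted p under 0.05, a share near the 33.1% of all tested genes. Nfe2l1, named after its values were seen, had 131.2 and 124.01 scaled reads in Tdrd7 null lenses, against 138.5 and 138.6 in control lenses, which did not overlap (log2 fold change -0.12, limma adjusted p = 0.138). With the trends on GC content and length removed it stood at 0.01. Of 6 measured genes of the interferon response and of antigen processing 0 passed limma, with 1 at an unadjusted p under 0.05, and their median log2 fold change was 0.03. That gene, Nlrc5, an activator of class I antigen genes, had 149.2 and 142.5 scaled reads in Tdrd7 null lenses, against 128.8 and 137.9 in control lenses (0.13, limma adjusted p = 0.123), and was called with both removed (0.24, limma adjusted p = 0.0274). B2m, the light chain of class I antigen molecules, was scarce, with 1.04 and 1.24 scaled reads in Tdrd7 null lenses, against 0.941 and 1.02 in control lenses.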
